A study of Mus musculus with 2 samples.

Results

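The 10 genes described here include the TGF-beta ligands Tgfb1, Tgfb2 and Tgfb3 and their signalling receptors Tgfbr1 and Tgfbr2. The others are Ltbp1 and Ltbp2 of the latent TGF-beta binding protein family, the modulators Lrg1 and Thbs1, and the TGF-beta-induced matrix gene Tgfbi. All 10 were found by symbol among the 31053 genes of the count tables. The study profiled cells of dissociated kidney cortex of 12-week-old mice with a 3' droplet kit, in 1 library of wild-type mice and 1 of mice with I-PpoI expression in podocytes, the epithelium of the filtration barrier. The enzyme I-PpoI, a homing endonuclease, cuts DNA and so makes double-strand breaks in the cells that carry it. The labels give no treatment, and the promoter that drives I-PpoI, the strain and the number of mice behind each library are not given in the sources used here.

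TGF-beta is secreted as a latent complex in which the mature cytokine stays bound to its propeptide, and latent TGF-beta binding proteins such as Ltbp1 tether that complex to the matrix. Integrins, proteases and thrombospondin-1 can release the cytokine, which then binds Tgfbr2, recruits Tgfbr1 and leads to phosphorylation of Smad2 and Smad3. In the kidney the pathway is known for its part in fibrosis, in which matrix-producing stromal cells expand and collagens accumulate.

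Each group is 1 library, so no test of the conditions was possible, and every interval below covers counting error only, neither variation between mice nor between libraries. A level is given in CPM, the unique transcript counts (UMIs) of a gene per 1000000 UMIs summed over the cells of a class, and a ratio is I-PpoI over wild-type with an exact 95% interval. The I-PpoI library gave 3946 cells with a median of 6628 UMIs, and the wild-type library 3099 cells with a median of 3483. Their median mitochondrially encoded share was 3.32% and 14.3%. The cell makeup of the libraries differed: 40.2% of the I-PpoI cells were macrophage-like against 5.74% of the wild-type cells, 7.35% against 0.807% were fibroblast-like, and 1.39% against 43.5% were proximal tubule-like. The 380 injured proximal tubule-like cells were all in the I-PpoI library. No cluster was podocyte-like, and over all kept cells the podocyte gene Nphs1 had 99 and 25 UMIs. With 60 I-PpoI and 19 wild-type cells that had a UMI of 3 or more podocyte markers, the members were not described in podocytes. The libraries shared 6 barcode sequences, 3 of them among the kept cells.

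Over whole libraries, 7 of the 10 genes were 2-fold or more higher in the I-PpoI library, where 18.6% of 15593 genes measured with 20 UMIs or more were, and 1 was 2-fold or more lower, where 14.1% were. Tgfbi was at 201 CPM in the I-PpoI library and 11.1 CPM in the wild-type library, a ratio of 18.2 (95% interval 15.9 to 20.9). Lrg1 was at 52.4 and 6.53 CPM, a ratio of 8.02, and Thbs1 was at 282 and 48.0 CPM, a ratio of 5.86. Ltbp2 had 2352 UMIs in the I-PpoI library and 3 in the wild-type library, a ratio of 439 (150.0 to 2129.6), but the barcodes left out of the cells held another 47 and 16 UMIs, at a ratio of 8.57 (4.77 to 16.2). Ltbp1 went the other way, with 15.6 against 43.0 CPM and a ratio of 0.363 (0.325 to 0.404).

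For some of the genes the ratio moved when the makeup of the libraries was held fixed. The classes and clusters that had at least 20 cells in each library (12 of them) were summed as they stood, and then weighted equally in both libraries by their mean share of UMIs. The weighting moved the ratio of Tgfb1 from 3.20 to 1.11 (0.978 to 1.26) and that of Tgfb3 from 4.78 to 1.29 (0.851 to 1.96). Tgfbr1 turned from 3.15 to 0.738 (0.660 to 0.824), Tgfbi went from 20.9 to 2.03 (1.74 to 2.36), and Thbs1 from 8 to 2.66 (2.39 to 2.97). Lrg1 went the other way, from 12 to 28.7 (22.7 to 36.1). Tgfb2, at 1.76 and 1.77 (1.46 to 2.15), and Ltbp1, at 0.381 and 0.467 (0.406 to 0.538), moved little. Ltbp2 stayed high at 1035 (146 to 7351), on 1 wild-type UMI, which leaves its size imprecise. The neutrophil-like cells, of which the wild-type library held 12, enter neither sum, so that Lrg1 stood at 8.02 over the whole library and at 12 over the shared classes.

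**Figure D1:**
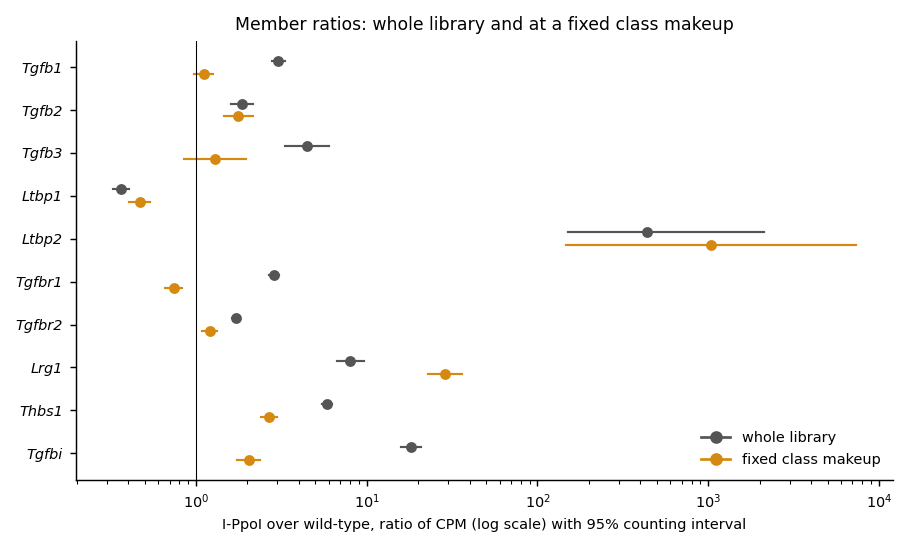
Ratio of CPM, I-PpoI over wild-type, on a log axis for each of the 10 genes, over the whole library (grey) and at a fixed class makeup (orange), with 95% counting intervals as bars. At a fixed makeup Tgfb1 sits at 1.11 and Tgfb3 at 1.29, while Lrg1 sits at 28.7 and Ltbp1 at 0.467.

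By class, 50 pairs of a gene and a named class had at least 20 UMIs over both libraries and at least 20 cells in each. Of these, 21 were 2-fold or more higher in the I-PpoI library (19 with an interval wholly above 1) and 4 were 2-fold or more lower (4 with an interval wholly below 1). The fibroblast-like class held 7 of the higher pairs (10 genes measured), where 11.5% of all genes measured in that class were 2-fold or more higher, and 2 of the lower pairs, where 16.2% were. The endothelial-like class held 4 higher (9 measured, background 5.94%) and 1 lower (background 6.36%). The injured distal epithelium-like class held 4 higher (8 measured, background 13.3%) and 1 lower (background 13.3%). The mesangial, mural and renin-like class held 2 higher (7 measured, background 6.53%) and 0 lower (5.41%). Macrophage-like cells held 2 higher (7 measured, 9.95%) and 0 lower (8.24%), and proximal tubule-like cells 2 higher (3 measured, 11.1%) and 0 lower (7.27%). Of the 3 genes measured in each of the T cell-like (background 13.1% and 5.82%) and the distal tubule and principal cell-like class (5.15% and 9.41%), 0 were 2-fold or more higher or lower. The members were chosen with earlier results of these data known, so these shares beside their backgrounds only describe and were not tested. Of the 4 higher endothelial-like pairs, Tgfb3 rested on 13 against 8 UMIs, a ratio of 2.17 (0.836 to 6.05). Tgfbi there rested on 20 against 2 UMIs. The limit of 20 UMIs was set over both libraries, so in the fibroblast-like class (3601059 against 124450 UMIs) a gene could pass it through I-PpoI UMIs alone. Genes with few UMIs and 0 in wild-type could not be called higher there, so that background is no like comparison for members with many UMIs. The wild-type library held only 25 fibroblast-like and 49 injured distal epithelium-like cells, and with classes of at least 50 cells in each library the counts were 10 higher and 1 lower.

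**Figure D2:**
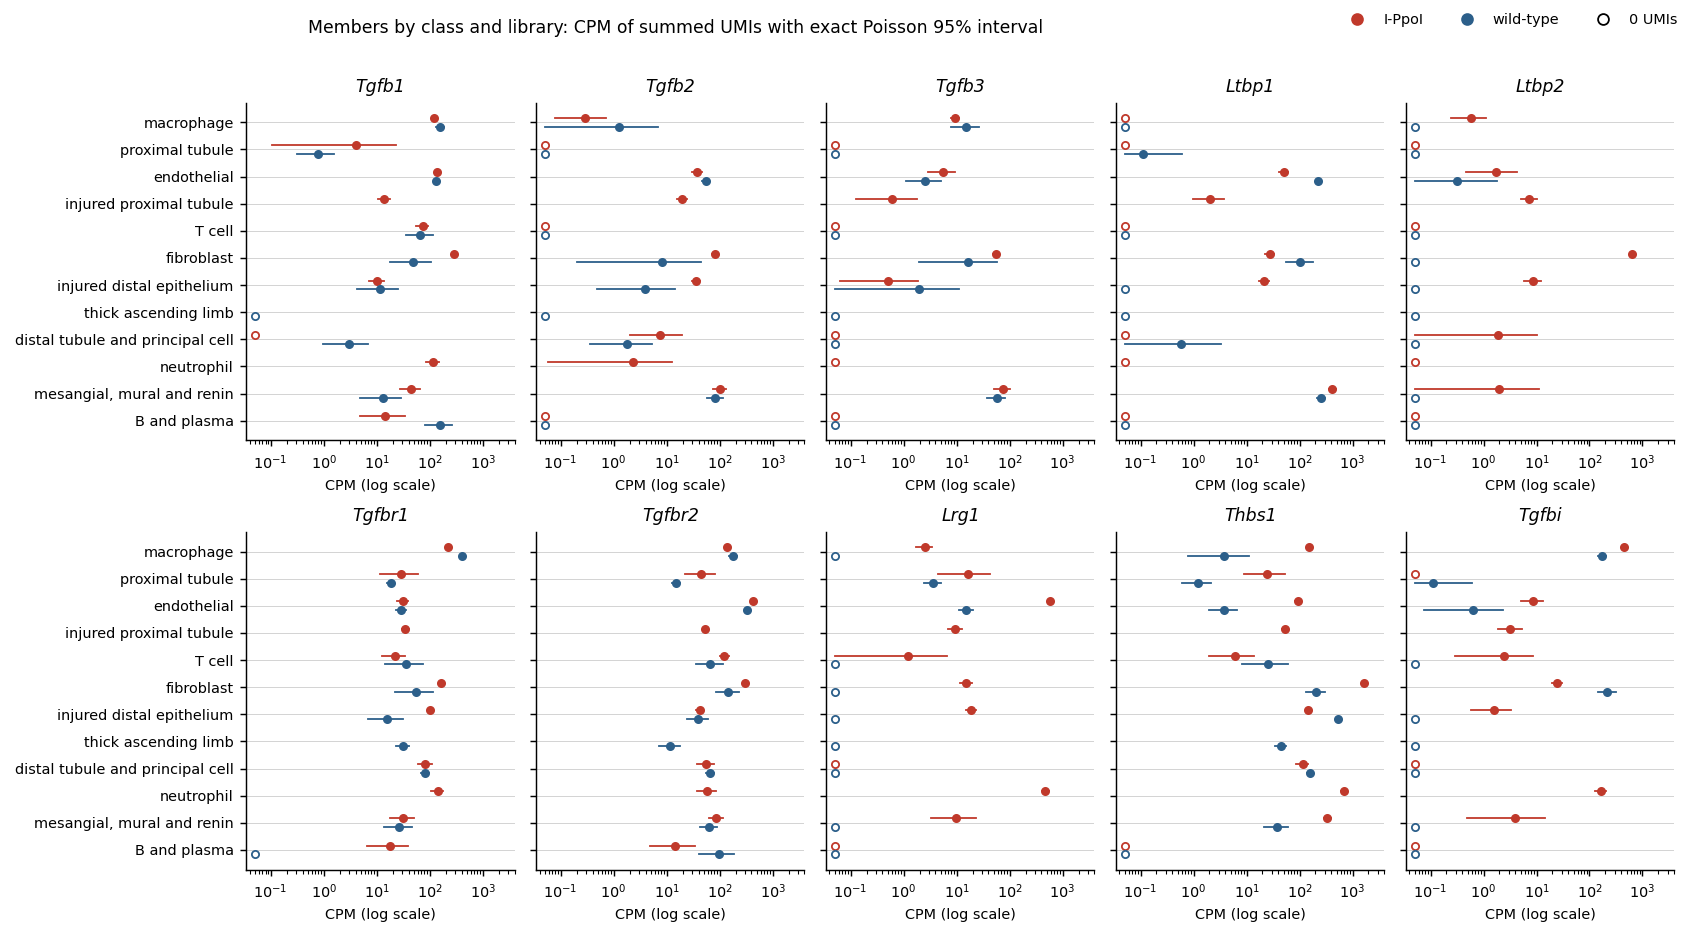
CPM of summed UMIs (log axis) of each of the 10 genes in each named class with at least 20 cells in that library, I-PpoI in red and wild-type in blue, with exact Poisson 95% intervals as bars; open circles at the left edge mark 0 UMIs. Lrg1 in endothelial-like cells is at 582 and 15.2 CPM, and Ltbp1 in the same cells at 50 and 223 CPM.

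Tgfb1 (chromosome 7, 25687002 to 25705077, plus strand of GRCm38), the main TGF-beta isoform of immune cells, had ratios nearer to 1 in macrophage-like and endothelial-like cells than in fibroblast-like cells, where it was higher in the I-PpoI library. In macrophage-like cells it was at 121 CPM in the I-PpoI library and 156 CPM in the wild-type library, a ratio of 0.775 (0.646 to 0.937), and in endothelial-like cells at 139 and 131 CPM, a ratio of 1.06 (0.912 to 1.23). In fibroblast-like cells it was at 292 CPM (1053 UMIs) and 48.2 CPM (6 UMIs), a ratio of 6.07 (2.78 to 16.6). With cells thinned to 1000 UMIs (70 UMIs against 3) the log2 ratio in this class was 0.89, short of 2-fold. Mesangial, mural and renin-like cells had 22 UMIs (43.7 CPM) against 6 (13.1 CPM), a ratio of 3.34 (1.31 to 10.1). Macrophage-like cells gave 48.4% of the Tgfb1 UMIs of the I-PpoI library and fibroblast-like cells 30.1%, whereas endothelial-like cells gave 64.4% of those of the wild-type library. In the I-PpoI library the fibroblast-like level stood above that of endothelial-like cells beyond counting error, and endothelial-like above macrophage-like cells. In the wild-type library the levels of B and plasma-like (157 CPM on 13 UMIs), macrophage-like and endothelial-like cells did not differ from their neighbour in that order beyond their intervals. A Tgfb1 UMI was seen in 54.1% and 46.6% of macrophage-like cells (median 8058 and 4436 UMIs per cell) and in 1.82% and 0.445% of proximal tubule-like cells (1859 and 3384 UMIs).

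Tgfb2 (chromosome 1, 186622792 to 186705989, minus strand), an isoform of stromal and epithelial cells, was led by mesangial, mural and renin-like cells among the named classes of both libraries, at 101 and 83.0 CPM, a ratio of 1.22 (0.787 to 1.91). Endothelial-like cells had 37.3 and 55.1 CPM, a ratio of 0.677 (0.518 to 0.880), but 1 wild-type cell held 23.6% of that library's 174 UMIs, and the mean over cells gave the opposite direction, 0.29 on the log2 scale, as did cells thinned to 1000 UMIs, 0.22. Most of these UMIs were in cluster 20, an endothelial-like cluster led by Tm4sf1, Aqp1 and Sox17, at 143 and 257 CPM. Fibroblast-like cells had 289 UMIs (80.3 CPM) against 1 UMI, a ratio of 9.99 (1.78 to 396), or 0.99 on the log2 scale with cells thinned to 1000 UMIs. Injured distal epithelium-like cells had 139 UMIs (35.9 CPM) against 2, a ratio of 9.12 (2.48 to 76.1), and here too the mean over cells was opposite in sign, -0.46 on the log2 scale, and with thinned cells or classes from marker scores 0 wild-type UMIs were left and the bound did not pass 1-fold. The highest I-PpoI level of all, 161 CPM, was in an unnamed cluster of 26 I-PpoI and 17 wild-type cells that carried all 6 markers of parietal epithelial cells, the cells that line Bowman's capsule, but was led by Tagln, Ctgf and Akap12; its wild-type cells were at 107 CPM. In unnamed cluster 22 (46 and 56 cells) Tgfb2 had 56 UMIs against 3, a ratio of 18.8 (6.13 to 94.1). No T cell-like cell had a Tgfb2 UMI, which allows up to 1.16% of the 259 I-PpoI cells to have a UMI and sets no limit on cells that express the gene.

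Tgfb3 (chromosome 12, 86056745 to 86079041, minus strand), the third isoform, was likewise led by mesangial, mural and renin-like cells, at 73.6 and 56.8 CPM, a ratio of 1.30 (0.764 to 2.23). Fibroblast-like cells were at 56.1 CPM (202 UMIs) and 16.1 CPM (2 UMIs), and macrophage-like cells at 9.48 and 15 CPM, with intervals of both ratios that include 1. With thinned cells the wild-type fibroblast-like cells had 0 Tgfb3 UMIs and the ratio could not be told from 1-fold. Fibroblast-like cells gave 49.0% of the Tgfb3 UMIs of the I-PpoI library, where they made up 10.3% of all UMIs. For Tgfb2 and Tgfb3 in mural cells the levels of the libraries overlapped within counting error, which does not show that they were equal.

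Ltbp1 (chromosome 17, 75005568 to 75392512, plus strand), which carries latent TGF-beta to the matrix, was lower in endothelial-like and higher in mural cells of the I-PpoI library. Bases upstream of its annotated start are shown with those of Lrg1 and Ltbp2, because results for these 3 genes in endothelial-like or fibroblast-like cells follow. All are from RefSeq (GRCm38.p6), 5′ to 3′ on the gene's strand, each ending just before the first start annotated in RefSeq or GENCODE (for Ltbp1 the RefSeq start, which lies upstream of the gene start given here): Ltbp1 at chr17:75005279-75005528 (plus), Lrg1 at chr17:56122002-56122196 (minus) and Ltbp2 at chr12:84876533-84876741 (minus). Capitals mark a match to a searched motif.
Ltbp1: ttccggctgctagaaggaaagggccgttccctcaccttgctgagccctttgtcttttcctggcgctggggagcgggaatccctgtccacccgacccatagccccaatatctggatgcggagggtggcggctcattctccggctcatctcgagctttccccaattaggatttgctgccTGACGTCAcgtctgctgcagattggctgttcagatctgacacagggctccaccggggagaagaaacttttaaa
Lrg1: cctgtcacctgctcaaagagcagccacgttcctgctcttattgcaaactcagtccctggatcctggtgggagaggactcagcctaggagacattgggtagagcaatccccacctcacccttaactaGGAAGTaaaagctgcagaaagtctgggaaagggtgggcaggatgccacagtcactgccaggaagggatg
Ltbp2: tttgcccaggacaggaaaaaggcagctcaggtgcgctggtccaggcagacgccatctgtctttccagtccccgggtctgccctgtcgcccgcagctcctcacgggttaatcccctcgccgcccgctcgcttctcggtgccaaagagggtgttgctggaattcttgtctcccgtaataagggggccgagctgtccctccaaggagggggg
The motifs, searched on both strands, were those of AP-1 (TGANTCA), STAT (TTCNNNGAA), a Smad-binding element (CAGACA), the cyclic AMP response element (TGACGTCA) and an ETS site (GGAAGT), the last 2 chosen after the sequences were seen. The Ltbp1 window held 1 cyclic AMP element, which 1.55% of 32851 RefSeq promoter windows of the same length hold, and the Lrg1 window held 1 ETS match, which 14.1% hold. The Ltbp2 window held none of the 5, and no window held an AP-1, STAT or Smad match. A match describes letters in a window, not a bound site. The RefSeq table held 8 of the 10 genes, not Tgfb3 or Thbs1.

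In endothelial-like cells Ltbp1 was at 50 CPM (118 UMIs) in the I-PpoI library and 223 CPM (706 UMIs) in the wild-type library, a ratio of 0.224 (0.182 to 0.272). Of the endothelial-like cells, 16.1% had a Ltbp1 UMI in the I-PpoI library and 45.1% in the wild-type library, and, with each cell thinned to 1000 UMIs, in 2.98% and 19.9%. The direction held in each of the 3 endothelial-like clusters with at least 20 cells in both libraries: 88.8 against 296 CPM in cluster 2, 31.7 against 96.6 CPM in cluster 6 and 67.7 against 107 CPM in cluster 20. Cluster 6 had 11 wild-type Ltbp1 UMIs, in shallow cells with a median of 860 UMIs. Mesangial, mural and renin-like cells had 418 CPM (210 UMIs) and 258 CPM (118 UMIs), a ratio of 1.62 (1.29 to 2.05), so that they stood above endothelial-like cells beyond counting error in the I-PpoI library, while the intervals of these classes overlapped in the wild-type library. Fibroblast-like cells were lower, at 27.5 CPM (99 UMIs) against 104 CPM (13 UMIs), a ratio of 0.263 (0.147 to 0.512), though with cells thinned to 1000 UMIs the log2 ratio was -0.34. Endothelial-like cells gave 83.7% of the wild-type library's Ltbp1 UMIs and 21.6% of the I-PpoI library's. Injured distal epithelium-like cells had 83 UMIs (21.4 CPM) against 0, so at least 3.63-fold higher if the wild-type class is set to 3 UMIs, but with classes from marker scores (22 wild-type cells) or thinned cells the bound did not pass 1-fold. No macrophage-like cell of either library had a Ltbp1 UMI, which allows up to 0.189% of the 1585 I-PpoI cells to have a UMI and says nothing of cells that express it below detection.

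Ltbp2 (chromosome 12, 84783212 to 84876532, minus strand), an elastic-fibre protein of the same family that is known not to carry latent TGF-beta, came almost wholly from fibroblast-like cells of the I-PpoI library. Fibroblast-like cells gave 95.7% of its I-PpoI UMIs, 2251 UMIs at 625 CPM in 186 of 290 cells. The 25 wild-type fibroblast-like cells had 0 UMIs, so the I-PpoI level, with 3 UMIs put in place of 0, was at least 25.9-fold higher. That 0 depended on doublet removal: without it, 34 wild-type fibroblast-like cells held 11 UMIs, the log2 ratio was 3.19, and fibroblast-like cells led in both libraries. No UMI in 25 cells allows up to 12% of such cells to have one. With cells thinned to 1000 UMIs, which leaves 21 wild-type cells, the bound was 1.42 on the log2 scale. The other classes were low, at 8.52 CPM in injured distal epithelium-like and 7.25 CPM in injured proximal tubule-like cells. The wild-type library's 3 UMIs were in an endothelial-like cell (1 UMI) and in the cluster with parietal markers (2 UMIs).

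Tgfbr1 (chromosome 4, 47353222 to 47414931, plus strand), the type I receptor kinase that phosphorylates Smads, was led by macrophage-like cells in both libraries and was lower there in the I-PpoI library, at 218 CPM against 416 CPM, a ratio of 0.525 (0.468 to 0.589). In cluster 0, the macrophage-like cluster that both libraries shared (639 and 161 cells), it was at 275 and 447 CPM, a ratio of 0.614 (0.542 to 0.697). The wild-type macrophage-like cells were shallower. A Tgfbr1 UMI was seen in 73.2% of I-PpoI and 76.4% of wild-type macrophage-like cells, and in 18.7% and 30.7% with cells thinned to 1000 UMIs. The part of depth in the ratio was not tested. Proximal tubule-like cells had a Tgfbr1 UMI in 7.27% and 10% of cells. In injured distal epithelium-like cells Tgfbr1 was higher, at 103 CPM (399 UMIs) against 15.7 CPM (8 UMIs), a ratio of 6.55 (3.29 to 15.3), but the log2 ratio was 0.29 without doublet removal and, as a bound against 0 UMIs, 0.47 with cells thinned to 1000 UMIs. Fibroblast-like cells had 164 and 56.2 CPM, a ratio of 2.91 (1.40 to 7.28), but 0.30 on the log2 scale with thinned cells (31 UMIs against 2). Endothelial-like (30.9 and 28.8 CPM) and distal tubule and principal cell-like cells (82.3 and 81.7 CPM) had ratios of 1.07 (0.778 to 1.48) and 1.01 (0.700 to 1.42).

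Tgfbr2 (chromosome 9, 116084293 to 116175360, minus strand), the type II receptor that binds the ligand first, was led by endothelial-like cells in both libraries. They had 435 CPM (1027 UMIs) and 325 CPM (1026 UMIs), a ratio of 1.34 (1.23 to 1.46). The clusters differed: the ratio was 0.824 (0.682 to 0.989) in cluster 2, 1.92 (1.34 to 2.84) in cluster 6 and 1.16 (0.915 to 1.46) in cluster 20. In cluster 6 the wild-type cells were shallow, with a median of 860 UMIs against 3992 in I-PpoI cells, and held 31 Tgfbr2 UMIs. Fibroblast-like cells had 308 and 145 CPM, a ratio of 2.13 (1.34 to 3.60), which fell below 2-fold without doublet removal (0.64 on the log2 scale), and macrophage-like cells 139 and 177 CPM, a ratio of 0.787 (0.663 to 0.940). In the proximal tubule-like class the gene was at 45.1 CPM on 11 UMIs and 15.1 CPM (2.98-fold, 1.45 to 5.51), but 1 I-PpoI cell held 45.5% of those UMIs, and a limit of 25% mitochondrially encoded UMIs gave -0.07 on the log2 scale. Both receptors were thus detected in macrophage-like, endothelial-like and fibroblast-like cells of both libraries, with Tgfbr1 highest in macrophage-like and Tgfbr2 in endothelial-like cells.

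Lrg1 (chromosome 17, 56119678 to 56122001, minus strand) encodes a secreted leucine-rich glycoprotein known to modulate endothelial TGF-beta signalling through the coreceptor endoglin. In endothelial-like cells it was at 582 CPM (1373 UMIs) in the I-PpoI library and 15.2 CPM (48 UMIs) in the wild-type library, a ratio of 38.3 (28.7 to 52.2). Of the 391 and 742 endothelial-like cells, 60.1% and 3.77% had a Lrg1 UMI, and in 33.9% and 1.33% with each cell thinned to 1000 UMIs. T cell-like cells, which should lack the gene, had a Lrg1 UMI in 0.386% of the 259 I-PpoI cells (median 2877 UMIs, against 4229 in the endothelial-like cells) and in none of the 60 wild-type cells. The high value was spread over cells, since the highest I-PpoI cell held 2.48% of the UMIs, and over the 14 alternative settings the log2 ratio lay between 5.22 and 5.51. Endothelial-like cells gave 74.8% of the I-PpoI library's Lrg1 UMIs.

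The Lrg1 difference was present in every shared endothelial-like cluster, at 484 against 5.99 CPM in cluster 2, 699 against 123 CPM in cluster 6 and 429 against 12.9 CPM in cluster 20. Cluster 6 had the highest wild-type level and also held much haemoglobin RNA, 4047 CPM in I-PpoI and 52310 CPM in wild-type cells. Its wild-type cells held 14 Lrg1 UMIs and had a median of 860 UMIs, against 3992 in its I-PpoI cells. Mural markers were higher in I-PpoI endothelial-like cells, with 10 of 10 listed markers detected at a summed 496 CPM against 7 of 10 at 25.3 CPM, and mostly so in cluster 20 (1908 against 27.7 CPM). In cluster 2 they stood at 14.8 and 14.1 CPM while Lrg1 differed 80.9-fold (44.4 to 164). Of the neutrophil markers, 5 of 8 were detected in endothelial-like cells of each library, at a summed 11.4 and 10.8 CPM. Genes that tissue dissociation can induce were higher in the I-PpoI cells, at a summed 4719.9 against 1006 CPM, and their part in the Lrg1 result was not tested.

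Neutrophil-like cells were the other source of Lrg1, at 476 CPM (205 UMIs) in 182 I-PpoI cells and 1267 CPM (47 UMIs) in 12 wild-type cells, too few for a comparison here. All other named classes stood below 20 CPM in the I-PpoI library. Injured distal epithelium-like cells had 73 UMIs against 0, at least 3.19-fold higher, with 32.9% of the UMIs in 1 cell, and the bound did not pass 1-fold with thinned cells or with classes from marker scores. In proximal tubule-like cells the ratio of 4.64 (1.19 to 13.1) rested on 4 I-PpoI UMIs and was 1.53 (0.0375 to 9.21) without the highest cell of each library.

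**Figure D3:**
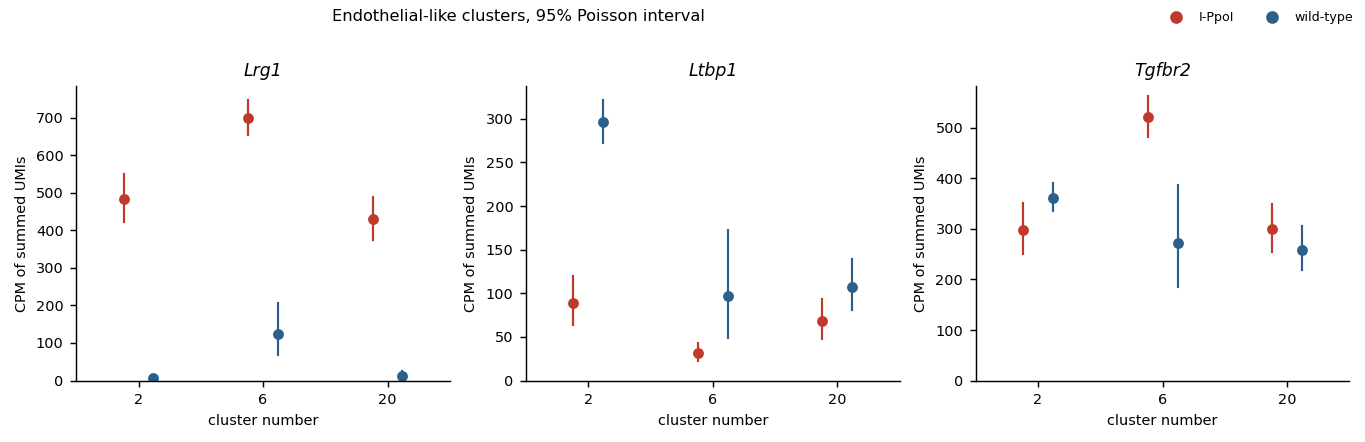
CPM of Lrg1, Ltbp1 and Tgfbr2 in the 3 endothelial-like clusters with at least 20 cells in both libraries (x axis, cluster number), I-PpoI in red and wild-type in blue, with exact Poisson 95% intervals as bars. Lrg1 is higher and Ltbp1 lower in the I-PpoI cells of clusters 2, 6 and 20, while Tgfbr2 lies on either side.

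Thbs1 (chromosome 2, 118111876 to 118127133, plus strand) encodes thrombospondin-1, a matrix glycoprotein able to activate latent TGF-beta. It was highest in fibroblast-like cells of the I-PpoI library, at 1629 CPM (5867 UMIs) against 201 CPM (25 UMIs) in wild-type, a ratio of 8.11 (5.49 to 12.5), and these cells gave 59.5% of its I-PpoI UMIs. Mesangial, mural and renin-like cells had 334 and 37.1 CPM, a ratio of 9 (5.45 to 15.8), and 6.40 (3.64 to 12.1) without the highest cell of each library, since 1 I-PpoI cell held 41.7% of the UMIs. Endothelial-like cells had 94.1 and 3.80 CPM, a ratio of 24.8 (13.9 to 48.6), and 19.1 (9.73 to 42.7) without those cells. A Thbs1 UMI was seen in 13% and 1.21% of endothelial-like cells and in 1.54% and 1.67% of T cell-like cells.

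In macrophage-like cells Thbs1 was at 151 CPM (2112 UMIs) against 3.74 CPM, where all 3 wild-type UMIs came from 1 cell, a ratio of 40.3 (13.8 to 195). Of those UMIs, 1969 were in cluster 12, which held 258 I-PpoI and 9 wild-type cells and was led by Lyz2, Mmp12 and Ctss. In the shared cluster 0 there were 28 UMIs against 0. It alone is left of this class without clusters of which 90% or more came from 1 library. The value of 0.50 on the log2 scale there is a bound against 3 UMIs, not a ratio. Most of the macrophage-like UMIs thus came from a cluster that the wild-type library barely held. Within cluster 12 Thbs1 was at 584 CPM (559 to 611) in I-PpoI cells and 58.3 CPM (12.0 to 171) in wild-type cells. The part of cluster makeup in the ratio was not tested.

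The injured distal epithelium-like class went the other way, with 142 CPM (551 UMIs) in the I-PpoI library and 543 CPM (276 UMIs) in the wild-type library, a ratio of 0.262 (0.226 to 0.304). Among the named classes with at least 20 cells it had the highest wild-type Thbs1 level, and 55.1% of its 49 cells had a UMI. Dissociation-induced genes were at 3818 and 4571 CPM in these cells, and their part in the Thbs1 result was not tested. The log2 ratio was -0.22 without doublet removal and -1.11 at clustering resolution 0.5. With classes from marker scores the class had 366 UMIs in 175 I-PpoI cells and 0 in 22 wild-type cells, so that it was not lower in I-PpoI cells there. At resolution 2, or with at least 500 genes per cell, the class held 1 wild-type cell, and the highest wild-type level at resolution 2 was in descending thin limb-like cells. Whether the class holds the same cell type in both libraries was not tested. The cluster with parietal markers also had the lower value in I-PpoI cells, 216 against 784 CPM, and distal tubule and principal cell-like cells had 114 and 155 CPM. In the wild-type library 29.3% of Thbs1 UMIs were from the injured distal epithelium-like and 27.7% from the distal tubule and principal cell-like class.

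Tgfbi (chromosome 13, 56609523 to 56639562, plus strand) encodes a secreted adhesion protein of the matrix that TGF-beta is known to induce. Macrophage-like cells gave 89.2% of its I-PpoI UMIs and 64.1% of its wild-type UMIs. They had 448 CPM (6288 UMIs) and 173 CPM (139 UMIs), a ratio of 2.59 (2.19 to 3.08), and the shared cluster 0 had 414 and 168 CPM, a ratio of 2.47 (2.05 to 3.00). With cells thinned to 1000 UMIs, 31.4% and 14.2% of macrophage-like cells had a Tgfbi UMI, and 0.395% and 0% of T cell-like cells. Within the I-PpoI macrophage-like cells the level ran from 255 CPM in cluster 17 to 625 CPM in cluster 12. Fibroblast-like cells had 24.7 CPM (89 UMIs) against 217 CPM (27 UMIs), a ratio of 0.114 (0.0733 to 0.182). Endothelial-like cells had 20 UMIs against 2, and 12 of the 20 were in 1 cell. Dissociation-induced genes in macrophage-like cells were at a summed 4739 and 2542 CPM, and their part in the Tgfbi, Thbs1 and Tgfbr1 results was not tested.

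**Figure D4:**
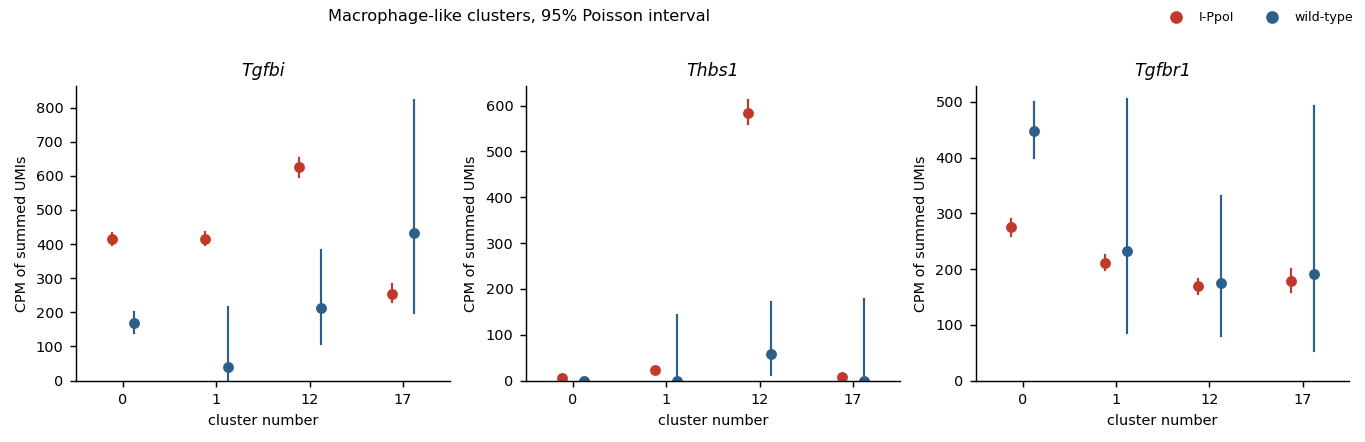
CPM of Tgfbi, Thbs1 and Tgfbr1 in the 4 macrophage-like clusters (x axis, cluster number), I-PpoI in red and wild-type in blue, with exact Poisson 95% intervals as bars. Thbs1 stands at 584 CPM in I-PpoI cells of cluster 12 and at 6.04 CPM in those of cluster 0, whereas Tgfbi and Tgfbr1 differ between libraries in cluster 0, the cluster with 161 wild-type cells.

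The injured proximal tubule-like class, which only the I-PpoI library held, could not be compared. Its 380 cells had Thbs1 and Tgfbr2 at 54 CPM each (268 UMIs each), Tgfbr1 at 34.4, Tgfb2 at 19.5, Tgfb1 at 13.9 and Lrg1 at 9.26 CPM. A single cell held 26.5% of the Thbs1 UMIs.

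The fibroblast-like class itself differed between libraries beyond these genes. Its 9 fibroblast markers were all detected in both, at a summed 15657 CPM in I-PpoI and 23672 CPM in wild-type cells, while the mural list, which holds contractile genes such as Acta2, was at 6327 and 1109 CPM. Macrophage markers in it were at 256 CPM (11 of 11 detected) and 24.1 CPM (2 of 11). The part of these in the fibroblast-like ratios was not tested.

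Members were also found in the same cells. Among the 186 I-PpoI fibroblast-like cells with a Ltbp2 UMI, 93.0% had a Thbs1 UMI, against 77.9% of all 290, and 83.3% had a Tgfb1 UMI, against 65.9%. Among the 60 I-PpoI endothelial-like cells with a Tgfbr1 UMI, 88.3% had a Tgfbr2 UMI, against 69.1% of all 391. In I-PpoI macrophage-like cells 66.2% of cells with Tgfbr1 had Tgfbr2, against 62.8% of all. Deeper cells hold more genes of any kind, so these shares describe the cells and are no sign of joint control.

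**Figure D5:**
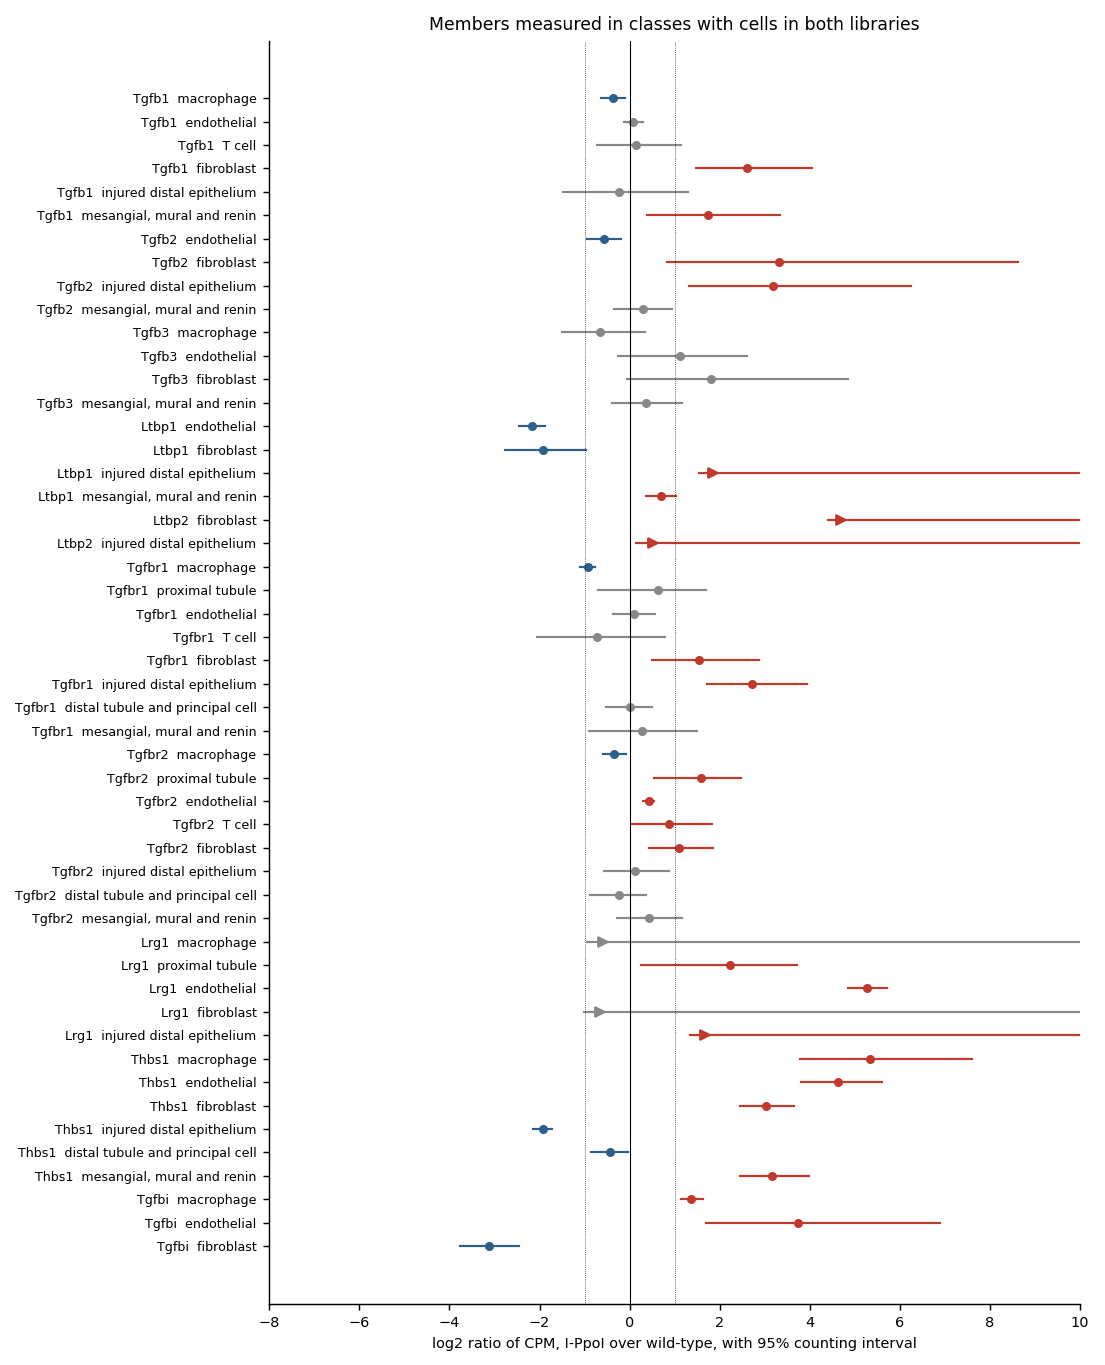
Log2 ratio of CPM, I-PpoI over wild-type, for the 50 measured pairs of a gene and a class, with exact 95% counting intervals as bars; dotted lines mark 2-fold, triangles a bound against 3 UMIs where the wild-type class had 0, with bars that have no upper end. Red and blue mark intervals wholly above and below 1-fold: Lrg1 in endothelial-like cells is at 5.26 and Ltbp1 in the same cells at -2.16.

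The genes whose levels were most like those of each member were found over 29 profiles of a class in a library, by Pearson's r of log2(CPM + 10). These profiles share their libraries and cell types, so the r values describe and were not tested. Ltbp1 was closest to Tmem47 (r = 0.96), Gjc1 and Spry4 (0.95 each). Tgfbi was closest to Ccl6 (0.94), Mpeg1 and Rab7b (0.90 each), all genes high in macrophage-like cells. Tgfb3 was closest to Tpm2 (0.93), Ptgis (0.92) and Des (0.91), Tgfb2 to Hspb1 (0.92), Nrep (0.91) and Zfp532 (0.89), and Ltbp2 to Fbn2 (0.92), Nkd2 and Tnfrsf11b (0.90 each). Tgfb1 was closest to Fxyd5 (0.89), Ppp1r18 and Crlf2 (0.87 each), and Tgfbr2 to Gm4951 (0.82), Lgals9 and the endothelial coreceptor Eng (0.80 each). Likeness was weaker for Lrg1, with Sema6b (0.84), Tnfrsf23 (0.77) and Ralgds (0.73), for Thbs1, with Elob (0.81), Litaf and Sra1 (0.76 each), and for Tgfbr1, with Pla2g15 (0.76), Pla2g4a and Ctsb (0.73 each).

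The rest of the pathway was followed with 67 genes in 5 lists. Over whole libraries 27 of 67 were 2-fold or more higher in the I-PpoI library (18.6% of all genes) and 5 lower (14.1%). Response genes, which TGF-beta is known to induce or repress, made up 15 of the 27 (21 listed). Their median log2 ratio was 1.60 beside 0.04 over all genes. Pathway ratios were not taken at a fixed class makeup, and the part of the makeup in these whole-library values was not tested. Of the 15, Col1a1, Col1a2, Col3a1, Junb and Postn were not 2-fold or more higher within the fibroblast-like class, where 11 of 21 response genes were. Timp1, a protease inhibitor, had 14349 UMIs against 21, a ratio of 382 (250.1 to 618). Of 16 latency and activation genes 7 were higher, led by Fn1 (fibronectin, 40.6-fold) and the membrane protease Mmp14 (25.4-fold), and 2 were lower, the integrin subunits Itgb8 (0.345) and Itgb6 (0.466). Of 11 receptors and coreceptors Cd109 was higher and Eng, the endothelial coreceptor, was lower (0.463).

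In endothelial-like cells 16 of the 56 measured pathway genes were 2-fold or more higher (5.94% of all genes) and 2 lower (6.36%). The inhibitory Smad gene Smad7 was at 153 and 284 CPM, a ratio of 0.537 (0.473 to 0.607). Acta2 (44.0-fold) and Tagln (51.2-fold), contractile genes that are also mural markers, were higher. Hipk2 and the integrin subunit Itgb5 were lower, at ratios of 0.444 and 0.289. Of 10 measured receptors and coreceptors, Acvr2b and Cd109 were 2-fold or more higher and 0 were 2-fold or more lower. Nearer to 1 were Eng at 0.751 (0.709 to 0.795), Acvrl1 at 0.661 (0.564 to 0.773), Bmpr2 at 0.689 (0.630 to 0.752) and Tgfbr3 at 1.04 (0.873 to 1.23). The list's median log2 ratio was -0.18 beside -0.03 over all genes.

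In macrophage-like cells 17 of 50 measured pathway genes were 2-fold or more higher (9.95% of all genes) and 4 lower (8.24%), the latter near the share over all genes. Fn1 was at 314 and 18.7 CPM, a ratio of 16.8 (10.2 to 30.0), and Tagln had 594 UMIs against 1 and Timp1 269 against 0. The 4 lower genes were the receptor Acvrl1 (0.448), the receptor-regulated Smad gene Smad3 (0.313), the coreceptor Eng (0.437) and Zfyve9. Of 9 measured receptors and coreceptors 2, Acvrl1 and Eng, were lower and 1, Bambi, was 2-fold or more higher. The median log2 ratio of that list was -0.35, or 0.19 with genes at 0 set to 3 UMIs. Response genes had a median log2 ratio of 1.64 (18 measured), or 1.24 with genes at 0 set to 3 UMIs, beside -0.05 over all genes. Tagln and Timp1 were also among the leading genes of the fibroblast-like cluster, and free RNA was not removed. Macrophage-like clusters 1, 12 and 17 held 514, 258 and 174 I-PpoI cells but only 5, 9 and 3 wild-type cells. The part of free RNA or of these clusters in the pathway counts was not tested.

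In mesangial, mural and renin-like cells 11 of 47 measured pathway genes were 2-fold or more higher (6.53% of all genes) and 3 lower (5.41%). Junb (9.89-fold, 7.09 to 14.2) and Fn1 (8.01-fold, 4.68 to 14.7) were among the higher genes. The 3 lower genes were Id1 (0.441, 0.353 to 0.548), Postn and Zfyve9. Id3 (0.651) and Pmepa1 (0.557) were below 1 but did not pass 2-fold. Dissociation-induced genes were at 3058 and 797 CPM in these cells; Junb is an immediate early gene of that kind too, and their part was not tested.

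In fibroblast-like cells 19 of 64 measured pathway genes were 2-fold or more higher (11.5% of all genes) and 14 lower (16.2%). Timp1 was at 3782 and 121 CPM, a ratio of 31.4 (19.0 to 56.1), Tagln at 4203 and 490.2 CPM (8.58, 6.67 to 11.2) and Fbn1, a microfibril gene, at 598 and 169 CPM (3.54, 2.31 to 5.74). Of 5 proteoglycans that bind TGF-beta 4 were lower, among them Dcn at 1150.2 against 9763 CPM, a ratio of 0.118 (0.110 to 0.126), whereas the collagen genes Col1a1 (1.09, 0.998 to 1.19) and Col1a2 (1.12, 1.03 to 1.23) were close to 1. The 25 wild-type cells set the precision of all of these.

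In T cell-like cells 6 of 15 measured pathway genes were 2-fold or more higher (13.1% of all genes) and 0 lower (5.82%). Among the higher were Itgav (6.29-fold, 2.08 to 31.1, on 80 against 3 UMIs) and Junb (2.44-fold, 2.04 to 2.95). Junb is an immediate early gene of the kind that dissociation can induce, and the part of dissociation was not tested. None of the 3 members measured in T cell-like cells passed 2-fold: Tgfb1, Tgfbr1 and Tgfbr2 had log2 ratios of 0.15, -0.72 and 0.87. Among 49 pathway genes measured in injured distal epithelium-like cells, 14 were 2-fold or more higher and 10 lower (13.3% of all genes each way). Of 16 response genes there, 6 were higher and 5 lower. Proximal tubule-like cells had 9 of 37 higher (11.1%) and 2 lower (7.27%). Distal tubule and principal cell-like cells had 3 of 37 higher (5.15%) and 1 lower (9.41%).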

How the data were processed

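Dissociated kidney cortex cells were measured in 1 I-PpoI and 1 wild-type library. The deposited values are whole-number UMI counts per gene and barcode, made by the authors with Cell Ranger against an mm10 reference; the labels name version 3.1, the file headers 6.0.2, and which applies is not settled. The labels also name Seurat 3, but the deposited counts are not normalized. The other deposited files list gene and barcode names. The files held 5268 and 5536 barcodes with 37811289 and 27793633 UMIs.

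Cells had at least 200 genes and at most 50% mitochondrially encoded UMIs. Scrublet's automatic threshold marked 0.856% and 0.342% of barcodes, so the cells with the highest 4% of scores were dropped from each library (145 and 118 barcodes). Cells of both libraries were clustered together in scanpy 1.11.5 (10000 counts per cell, log, 2000 variable genes, 30 components, 15 neighbours, Leiden by leidenalg 0.10.2 at resolution 1). Clusters were named from 23 marker lists (distal tubule and principal cell lists merged) where 3 or more markers had 25 CPM and were 4-fold above the median over clusters, unless leading genes named another class or all cycling markers were present; 5 clusters stayed unnamed. The clustering tool, the merged list, the doublet rule and the cycling rule were settled after earlier clusterings had been seen. The members and lists were chosen with earlier results of these data known. Free RNA was not removed.

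UMIs were summed per class and library as CPM. Exact Poisson limits were used for levels, conditional binomial limits for ratios, Clopper-Pearson limits for cell shares and a log-normal approximation for ratios at a fixed makeup (all 95%), which cover counting error only. Ratios needed 20 UMIs over both libraries together and 20 cells in each library. A class at 0 was set to a floor of 3 UMIs, written as at least; this was added after first counts were seen. Shares of 0 allow up to 3 cells. Named genes were all members and, over the whole library and in classes with at least 50 cells in each library, the 3 pathway genes each way with at least 50 UMIs whose interval bound nearest 1 was the most extreme, plus the 3 genes of at least 200 UMIs with the highest correlation with each member; other genes named were chosen after their values were seen. Some genes that this rule takes are not reported here. The ratio steps were tested on simulated data. Coordinates came from GENCODE M21 (GRCm38), which matched 30934 of 31053 identifiers (99.6%).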

Additional observations from a re-analysis of the deposited data

Results flagged for a closer look

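Some genes differed in opposite directions in 2 cell classes, and the difference between classes was not tested. On the log2 scale of I-PpoI over wild-type, Tgfbr1 was 2.71 in injured distal epithelium-like and -0.93 in macrophage-like cells, and Tgfbi was 3.74 in endothelial-like cells (20 against 2 UMIs) and -3.13 in fibroblast-like cells. Ltbp1 was at least 1.86 in injured distal epithelium-like cells, a bound against 3 UMIs, and -2.16 in endothelial-like cells. Thbs1 was 5.33 in macrophage-like and -1.93 in injured distal epithelium-like cells.

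The barcodes left out of the cells (1322 in the I-PpoI and 2437 in the wild-type library, shallow, rich in mitochondrially encoded RNA or doublet-like) also held the members. The ratios of I-PpoI over wild-type in them were 7.13 for Tgfb1, 6.12 for Tgfb2, 8.16 for Tgfb3, 5.96 for Tgfbr1, 5.04 for Tgfbr2, 41.1 for Tgfbi, 8.57 for Ltbp2, 134 for Lrg1 (138 against 3 UMIs) and 16.8 for Thbs1. For Ltbp1 the ratio was 2.02 (1.19 to 3.38), above 1, whereas it was below 1 over the kept cells.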

How the results depend on the processing

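Of 600 values of the 50 ratios under 14 alternatives, 539 lay within the counting interval of the reported value, 55 outside it, and 6, all of the 32 ratios whose interval excludes 1, had the opposite sign. Among ratios whose interval includes 1, another 21 values of 9 ratios changed sign. The 6 on the log2 scale were Tgfbr2 in proximal tubule-like cells at a mitochondrial limit of 25% (-0.07), Thbs1 in distal tubule and principal cell-like cells at resolution 2 (0.25), Lrg1 in proximal tubule-like cells with classes from marker scores (-0.78), and Tgfb2 in endothelial-like cells as a mean over cells (0.29) or thinned to 1000 UMIs (0.22) and in injured distal epithelium-like cells as a mean over cells (-0.46); the cause was not tested. The counts of 21 higher and 4 lower pairs, and of 95 and 37 pairs of a pathway gene and a class, fell to 9, 1, 61 and 8 with at least 500 genes per cell, to 10, 2, 60 and 19 without clusters of which 90% or more came from 1 library, and to 9, 2, 50 and 11 with cells thinned to 1000 UMIs, settings that leave fewer cells, classes or UMIs. At resolution 2 they were 11, 2, 54 and 31. With classes of at least 50 cells in each library, chosen after seeing the data, they were 10, 1, 59 and 11. Leiden clustering in igraph, also added after seeing the data, gave 21, 4, 94 and 38. The leading class was the same in both libraries for 6 members, and for 5 to 8 under the alternatives. Lrg1 in endothelial-like cells ranged from 5.22 to 5.51, Ltbp1 there from -3.04 to -2.04 and Tgfbi in macrophage-like cells from 1.22 to 1.46 (log2). No paired analysis was possible because each group has 1 library, and for the same reason no library could be left out. The 25 wild-type fibroblast-like cells limit every ratio in that class, which had no value with at least 500 genes per cell (7 wild-type cells), at resolution 2 (18) or without clusters of 1 library.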
